A study of Mus musculus with 24 samples.

Results

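The EMB effect, the log2 difference between embigin-positive (EMB+) and embigin-negative (EMB-) cells, was compared between vertebral cells with and without GFP. It was computed on log2(FPKM + 1) in the GFP+ sort and in the GFP- sort, and the GFP- effect was subtracted from the GFP+ effect, gene by gene. FPKM counts fragments per unit of transcript length and of mapped reads, so levels of different genes can be set side by side. The comparison used the 16 vertebral libraries of the 24 in the series, 4 in each of 4 groups, and the 11237 of 21948 genes that reached FPKM 1 in 4 or more of these 16. All groups came from the spine of male mice on postnatal day 10 whose genotype is labelled WT. Every cell had been sorted as lacking CD45, Ter119, CD31, Thy1, 6C3 and CD105 and as carrying CD200. The groups were GFP+ EMB+, GFP+ EMB-, GFP- EMB+ and GFP- EMB-. The series design ties GFP to a Zic1-linked Cre, so that GFP marks cells in which the Cre has acted at some time, whatever their present Zic1 level. The genotype label does not name the Cre or the reporter, and nothing says how many animals went into a library. Titles call the libraries biological replicates 1 to 4, and p-values measure the spread between such libraries.

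Vertebral bodies grow on growth plates, in which resting cells give rise to dividing chondrocytes that enlarge, express hypertrophic genes such as Col10a1 and Ihh, and are replaced by bone. Skeletal stem and progenitor cells are sorted by surface proteins, and the product of Emb, a transmembrane glycoprotein that escorts monocarboxylate transporters to the membrane, was the last split here. Zic1 is a zinc finger transcription factor of the dorsal body axis. A positive difference below means that EMB+ cells stood higher relative to EMB- cells in the GFP+ sort than in the GFP- sort. It can come from any of the 4 groups. Levels in all 4 are given for some genes, and where a difference stands alone, the group it came from is not shown. In sorted bulk samples, fewer cells of a type and less RNA per cell cannot be told apart.

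Titles and cell type labels disagreed for the 4 libraries used as GFP- EMB+, whose titles read as EMB-, GFP+, and these were grouped by the cell type label. Emb lay at 48.7, 56.5, 48.2 and 46.6 FPKM in GFP+ EMB+ libraries, at 0.386, 0.543, 0.238 and 0.425 in GFP+ EMB- libraries, at 51.0, 47.4, 55.3 and 44.4 in those sorted GFP- EMB+ and at 0.918, 0.855, 1.02 and 1.32 in those sorted GFP- EMB-. Zic1 reached 1.51, 2.39, 1.62 and 1.97 FPKM in GFP+ EMB+ libraries and 0.349, 0.841, 1.39 and 0.729 in GFP+ EMB- libraries. It stood at 0.0101, 0.0480, 0 and 0.108 in those sorted GFP- EMB+ and at 0, 0.0647, 0.0203 and 0 in those sorted GFP- EMB-. Both genes thus followed the cell type labels in all 16 libraries. The difference for Emb, the gene of the sort marker, was 0.55 ± 0.16 and its call was lost in 2 settings and without any 1 of 4 libraries. The sum of FPKM per library ran from 380757 to 452256 and the number of genes at an FPKM of 1 or more from 10154 to 10933. The lowest correlation of a library with another of its group was 0.980 to 0.986. Hemoglobin genes took 1.79% to 2.96% of the summed FPKM in GFP- EMB- libraries and 0.0263% to 0.250% in the others.

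By limma's moderated test with Benjamini-Hochberg adjustment at 0.05, the EMB effect differed between the sorts for 1118 genes, which is 9.95% of those tested. It was higher in GFP+ cells for 688 genes (6.12%) and lower for 430 (3.83%), and 344 and 147 of these differed by 1 log2 unit or more. With the replicate number as a block, 1826 genes were called (16.2%), 962 higher (8.56%) and 864 lower (7.69%). The EMB effect itself was called for 6823 genes in GFP+ cells (60.7%) and for 6905 in GFP- cells (61.4%), with medians over all genes of 0.33 and 0.31. Its split depended on scaling: 5781 higher (51.4%) and 1042 lower genes (9.27%) in GFP+ cells became 2051 and 2096 with median-ratio scaling, which moved the median to 0.01, and 5524 (49.2%) and 1381 (12.3%) in GFP- cells became 2245 and 2728, with a median of -0.02. The difference between the sorts moved less, to 741 higher and 419 lower genes, and its median over all genes was 0.01 without and 0.02 with that scaling. Across genes, which are not independent replicates, the GFP+ and GFP- effects correlated at 0.740 (Pearson) and 0.667 (Spearman) over these 11237 genes.

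Among the 1118 genes, 152 had called EMB effects in opposite directions, 125 of them higher in EMB+ than in EMB- cells of the GFP+ sort and lower in the GFP- sort, and 27 the reverse. A further 338 had both effects in the same direction but of unequal size. For 356 genes the GFP- effect alone was called and for 272 the GFP+ effect alone. Over all genes tested, the 4 GFP+ EMB- libraries lay wholly below the other 12 for 551 genes (4.90%) and wholly above them for 105 (0.934%). GFP- EMB- libraries lay wholly above the rest for 416 genes (3.70%) and wholly below for 456 (4.06%). For the EMB+ groups, 1.67% of genes lay wholly above and 0.730% wholly below the rest in GFP+ cells, and 2.70% and 0.623% in GFP- cells.

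**Figure D1:**
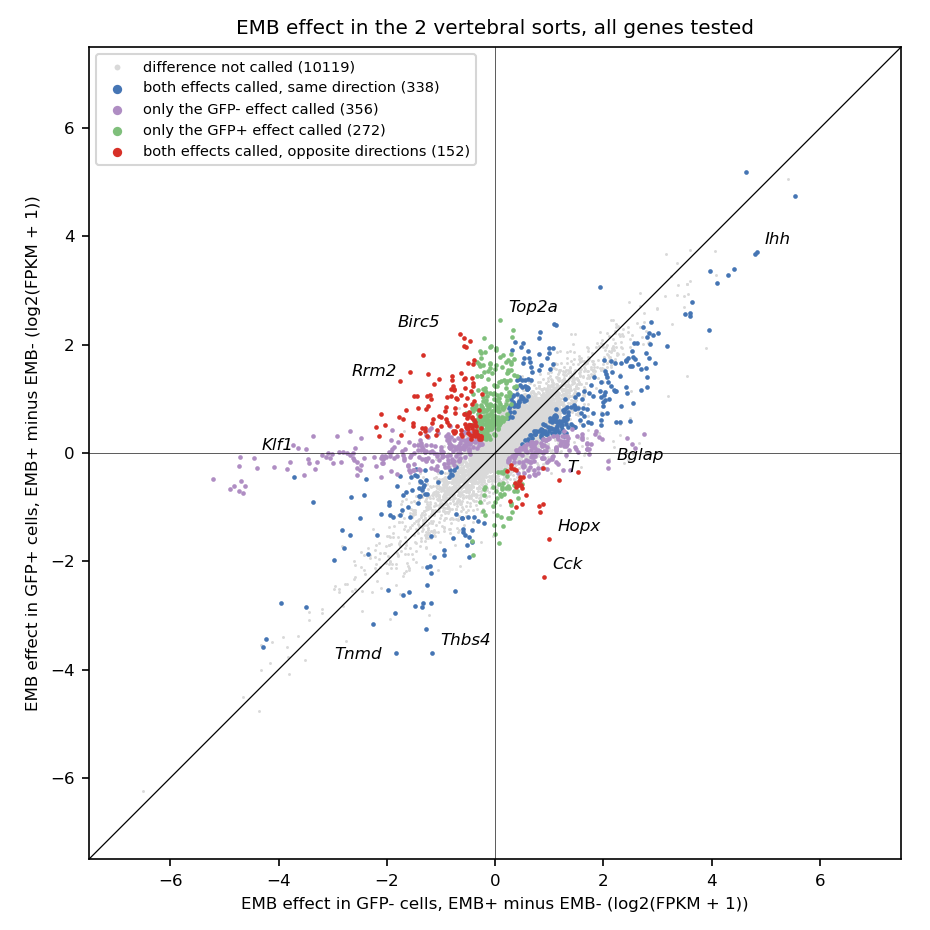
EMB effect in GFP- cells (x axis) against the EMB effect in GFP+ cells (y axis), both on log2(FPKM + 1), for the 11237 genes tested; colours give the kind of difference, and the diagonal marks equal effects. Klf1 sits far to the left near 0 on the y axis, Rrm2 at -1.58 and 1.497, and Hopx and Cck in the opposite quadrant.

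Red blood cell genes had the largest differences. Of the 18 genes of the erythroid list, 17 were tested and 17 were called, with a higher EMB effect in GFP+ cells (background 6.12%) and a median difference of 3.92 against 0.01 over all genes. The 4 GFP- EMB- libraries stood above the 12 others for 16 of these 17. For 5 of the 17, fewer than 4 libraries outside the highest group reached FPKM 1. These genes passed the filter through that group alone, which favoured a difference, so their calls are no independent support. Ermap and Gata1, given below, are among them. Klf1, the transcription factor that switches on adult globin genes, lay at 1.23, 0.962, 1.54 and 0.799 FPKM in GFP+ EMB+ libraries, at 1.28, 1.24, 1.71 and 0.906 in GFP+ EMB- libraries, at 0.636, 1.68, 0.906 and 0.402 in those sorted GFP- EMB+ and at 32.7, 47.2, 43.0 and 37.6 in those sorted GFP- EMB-. It was high in the 4 GFP- EMB- libraries and low in the other 12, which overlapped, and its difference, given here and below on log2(FPKM + 1) with its SE, was 4.36 ± 0.25 (adjusted p = 3.7e-10). Slc4a1, which encodes the anion exchanger band 3, had the largest difference of the 11237 genes, 4.73 ± 0.63 (adjusted p = 0.00020). Its levels were 118.8, 190.7, 204 and 138 FPKM in GFP- EMB- libraries, against 0.905 to 9.06 in the other 12.

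The same group held the high levels of membrane, enzyme and transcription factor genes of the lineage. Differences were 4.49 for Car2 (carbonic anhydrase), 4.64 for Ctse (a protease), 4.13 for Tspan33 (a tetraspanin), 3.88 for Rhag (the Rh-associated glycoprotein), 3.75 for Ermap, 2.84 for the transcription factor Gata1 and 2.46 for Sptb (spectrin beta). The globin genes Hba-a1, Hba-a2, Hbb-bt and Hbb-bs differed by 4.22, 3.92, 4.20 and 4.03, with adjusted p from 0.0010 to 0.0048. Each pair of globin copies is near-identical in sequence, so the split of reads within a pair is uncertain. Hba-a1 alone averaged 3284 ± 635 FPKM (SD, n = 4) in GFP- EMB- cells and 122, 201 and 121 in the other groups.

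Heme synthesis followed. Of 11 genes of the pathway tested, 10 were called higher (background 6.12%), and GFP- EMB- libraries stood above the 12 others for 10; the median difference was 2.01. Alas2, the erythroid form of the first enzyme of the pathway, lay at 1.32, 5.04, 5.28 and 4.94 FPKM in GFP+ EMB+ libraries, at 2.87, 9.09, 6.73 and 8.58 in GFP+ EMB- libraries, at 1.06, 4.78, 4.72 and 4.61 in those sorted GFP- EMB+ and at 73.0, 127, 135 and 109 in those sorted GFP- EMB-. The GFP- EMB- libraries were above the 12 others, which overlapped, and the difference was 4.01 ± 0.61 (adjusted p = 0.00066). Alad, the enzyme of the next step, differed by 2.45, Cpox, a later oxidase, by 2.003, and Slc25a37, which encodes the mitochondrial iron importer mitoferrin, by 2.95. Summed FPKM of the erythroid list was 7619 to 12878 in GFP- EMB- libraries, 284 to 644 and 292 to 1009.7 in EMB+ and EMB- libraries of the GFP+ sort, and 229 to 620.3 in GFP- EMB+ libraries.

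**Figure D2:**
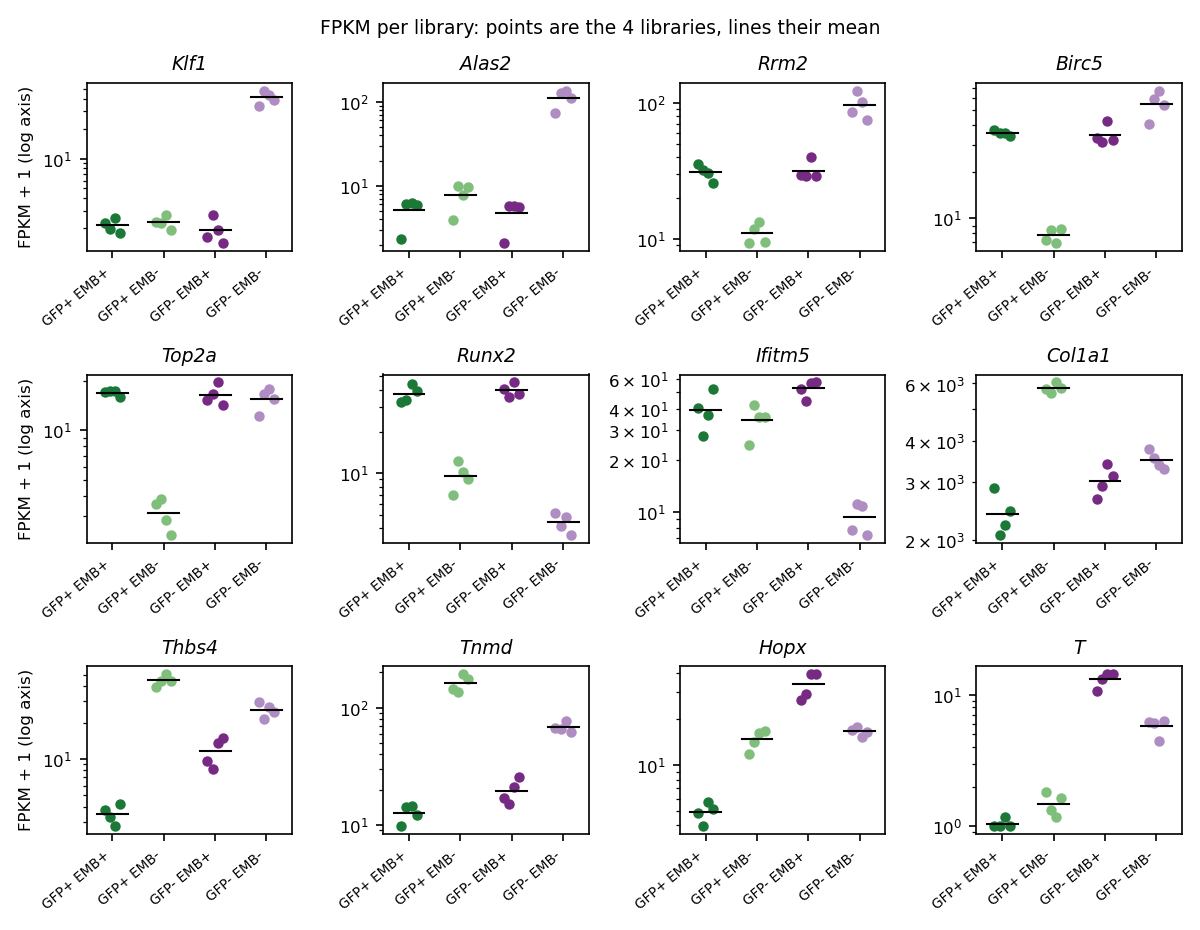
FPKM + 1 on log axes for 12 genes in the 4 groups; points are the 4 libraries and lines their mean. Klf1 and Alas2 stand high in GFP- EMB- cells alone, Top2a low in GFP+ EMB- cells alone, and T high in GFP- EMB+ cells.

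Most cell cycle genes tested had a higher EMB effect in GFP+ cells. Of 28 DNA replication and S phase genes tested, 24 were called higher, with a median difference of 1.31, and of 30 mitosis and G2/M genes 28 were called higher, with a median of 1.75 (background 6.12% higher). None of the 58 was called lower (background 3.83%). One gene of each list passed the filter through a single group. In GFP+ cells 26 of the 28 and 30 of the 30 were called higher in EMB+ than in EMB- cells, with median EMB effects of 1.06 and 1.70. In GFP- cells 12 and 8 were called lower and 2 and 4 higher, with medians of -0.22 and -0.09, and median-ratio scaling made this 21 and 15 lower and 1 and 1 higher. GFP+ EMB- libraries lay below the 12 others for 25 of the 28 replication genes and 29 of the 30 mitosis genes, where 4.90% of all genes did so. GFP- EMB- libraries lay above the 12 others for 8 and 4 of them, where 3.70% of all genes did so.

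Members differed in how the GFP- sort behaved. Rrm2 encodes the small subunit of ribonucleotide reductase, which makes deoxynucleotides (GRCm38 chromosome 12, 24708241 to 24714146). It lay at 34.7, 30.9, 29.2 and 24.9 FPKM in GFP+ EMB+ libraries, at 8.30, 10.9, 12.3 and 8.57 in GFP+ EMB- libraries, at 28.6, 27.8, 38.7 and 27.9 in those sorted GFP- EMB+ and at 83.5, 121, 99.3 and 73.1 in those sorted GFP- EMB-. The 2 EMB+ groups overlapped, GFP+ EMB- cells were lowest and GFP- EMB- cells highest, so the EMB effect was 1.497 ± 0.15 in GFP+ and -1.58 ± 0.15 in GFP- cells, a difference of 3.07 ± 0.21 (adjusted p = 9.9e-09). Birc5, which encodes survivin of the chromosomal passenger complex, lay at 36.6, 34.7, 34.99 and 32.98 FPKM in GFP+ EMB+ libraries, at 6.28, 7.41, 5.89 and 7.58 in GFP+ EMB- libraries, at 31.9, 30.3, 41.9 and 31.3 in those sorted GFP- EMB+ and at 39.8, 58.1, 66.2 and 53.3 in those sorted GFP- EMB-. Its GFP- EMB- libraries overlapped the GFP- EMB+ ones, and its difference was 2.86 ± 0.18 (adjusted p = 1.3e-09). Top2a, the DNA topoisomerase of chromosome condensation, lay at 15.998, 16.2, 16.4 and 14.9 FPKM in GFP+ EMB+ libraries, at 2.56, 2.80, 1.85 and 1.31 in GFP+ EMB- libraries, at 14.3, 15.7, 18.6 and 13.2 in those sorted GFP- EMB+ and at 11.2, 15.7, 16.9 and 14.4 in those sorted GFP- EMB-. Here 3 groups overlapped and GFP+ EMB- cells alone stood apart, below them, with a difference of 2.37 ± 0.21 (adjusted p = 5.4e-08) and an EMB effect in GFP- cells of 0.08 ± 0.15.

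The 8 genes with the largest opposite effects in this direction were Rrm2 and the 7 that follow. Ube2c, a ubiquitin-conjugating enzyme of the anaphase-promoting complex, had EMB effects of 1.803 ± 0.18 in GFP+ and -1.33 ± 0.18 in GFP- cells, with levels of 5.10, 7.06, 4.27 and 7.64 FPKM in GFP+ EMB- and 42.4, 73.0, 77.2 and 58.9 in GFP- EMB- libraries. Both EMB+ groups lay between these, from 19.1 to 28.8. The histone genes Hist1h2ae, Hist1h1b and Hist1h2ab had effects of 1.32, 1.45 and 1.05 in GFP+ cells and -1.76, -1.24 and -1.25 in GFP- cells. Histone H2A genes are close copies of each other, so reads may be split between them. Mybl2, a transcription factor of the late cell cycle, Ccne1, the cyclin of S phase entry, and Dck, which salvages deoxycytidine, differed by 2.39, 2.29 and 2.502.

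Other members with the smallest adjusted p were Tk1 (thymidine kinase, 2.53 ± 0.20), Uhrf1 (maintenance of DNA methylation, 2.41 ± 0.19), Fen1 (flap endonuclease, 1.86 ± 0.17), Ccnb2 (cyclin B2, 2.69 ± 0.20) and Ccna2 (cyclin A2, 2.49 ± 0.21). Mki67, the proliferation marker, averaged 2.22 ± 0.413 and 0.417 ± 0.0834 FPKM in EMB+ and EMB- cells of the GFP+ sort and 1.90 ± 0.354 and 3.95 ± 1.05 in the GFP- sort. In the list of D cyclins, E2F factors and CDK inhibitors, 9 of 19 tested genes were called higher and 1 lower (background 6.12% and 3.83%). E2f2 and E2f8, factors of the E2F family, differed by 3.09 ± 0.25 and 2.25 ± 0.21, and the inhibitor gene Cdkn2d by 1.23 ± 0.15. Under a filter at FPKM 5, 3 genes of this list were called higher.

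Erythroid levels were set beside these values. In GFP- EMB- libraries, where Rrm2 was highest, the erythroid sum was 7619 to 12878 FPKM. In GFP+ EMB- libraries, where Rrm2 and Top2a were lowest, the erythroid sum of 292 to 1009.7 overlapped that of GFP+ EMB+ libraries, 284 to 644. The part of erythroid cells in the cell cycle levels of the GFP- EMB- group was not tested.

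**Figure D3:**
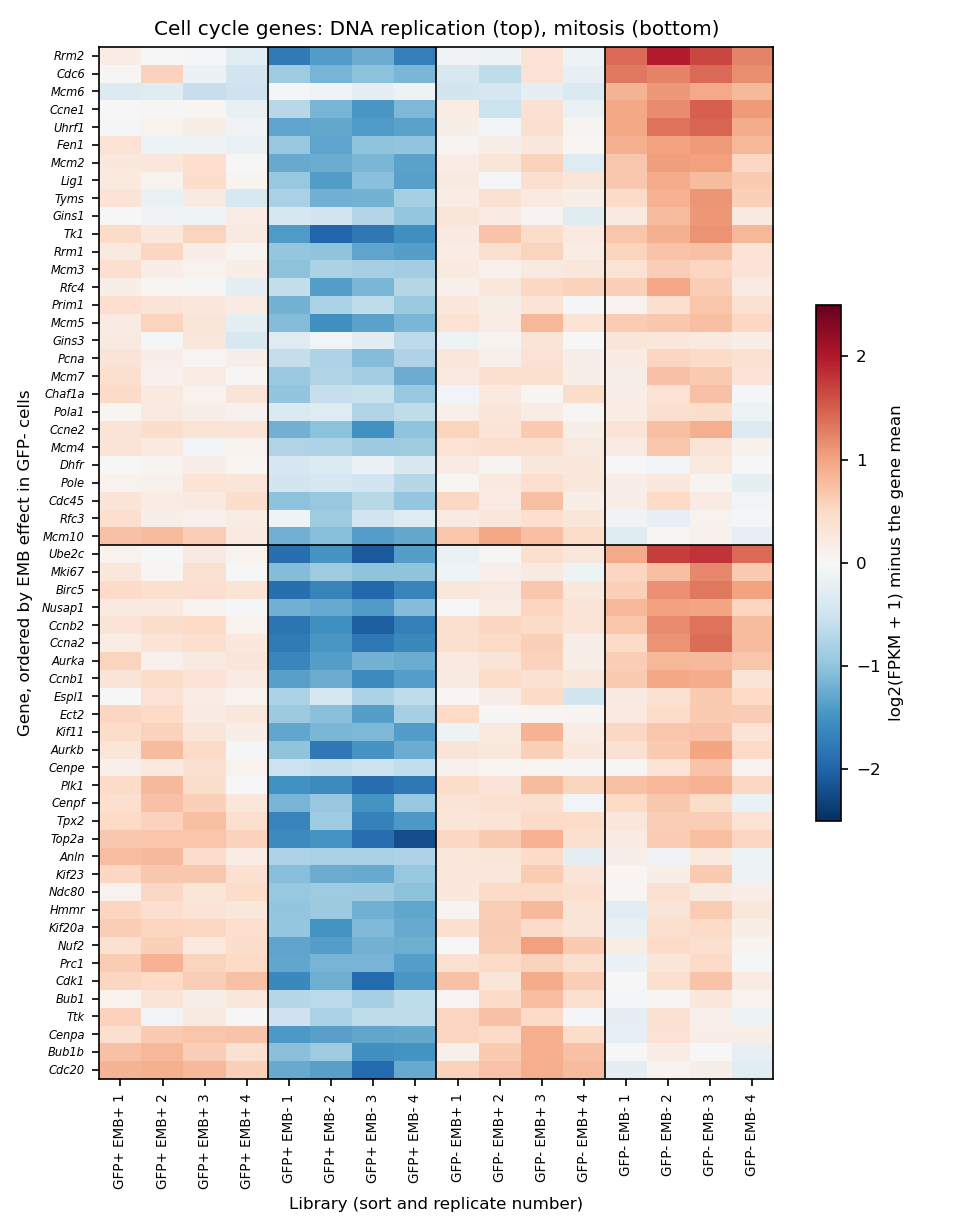
Heat map of 58 cell cycle genes (rows, DNA replication above mitosis, each ordered by EMB effect in GFP- cells) in the 16 libraries (columns); colour is log2(FPKM + 1) minus the gene's mean over the libraries. The block of GFP+ EMB- libraries is blue for nearly every gene, and the upper rows of each list are red in GFP- EMB- libraries.

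Because these genes moved together, the 250 bases before the start of their genes were read from the RefSeq promoter table (GRCm38.p6). Both strands were searched for TTTGAA (core of the cell cycle homology region), CCAAT (bound by NF-Y), TTCCCGC (E2F), AGATAA (bound by erythroid zinc finger factors such as the product of Gata1) and CACACCC (KLF factors), none of which contains another. A promoter was matched by symbol for 8678 of the 11237 genes tested, for 49 of the 58 cell cycle genes and for 13 of the 17 erythroid genes. In the first listed promoter of each gene, CCAAT was found for 37 of the 49 cell cycle genes (75.5%) against 36.8% of all 8678, TTTGAA for 13 (26.5%) against 10.3%, and TTCCCGC for 8 (16.3%) against 7.19%. Of the 13 erythroid genes, 8 held CCAAT (61.5%), 4 held AGATAA (30.8% against 5.40%) and 3 held CACACCC (23.1% against 7.29%), so CCAAT was frequent in both sets. A match describes the letters and shows no bound site. The promoters of the 3 members per set with the smallest adjusted p that hold a motif are printed 5' to 3' with motif matches in capitals. They lie at chr9:70421555-70421804, minus strand (Ccnb2), chr12:24708004-24708253, plus strand (Rrm2), chr17:56303087-56303336, plus strand (Uhrf1), chr8:84901732-84901981, plus strand (Klf1), chr4:119189996-119190245, minus strand (Ermap) and chrX:7967911-7968160, minus strand (Gata1).
Ccnb2: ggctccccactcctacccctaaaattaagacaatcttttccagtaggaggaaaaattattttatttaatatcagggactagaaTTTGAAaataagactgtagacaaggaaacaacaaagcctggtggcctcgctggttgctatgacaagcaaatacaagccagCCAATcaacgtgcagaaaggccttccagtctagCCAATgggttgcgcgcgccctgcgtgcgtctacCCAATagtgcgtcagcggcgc
Rrm2: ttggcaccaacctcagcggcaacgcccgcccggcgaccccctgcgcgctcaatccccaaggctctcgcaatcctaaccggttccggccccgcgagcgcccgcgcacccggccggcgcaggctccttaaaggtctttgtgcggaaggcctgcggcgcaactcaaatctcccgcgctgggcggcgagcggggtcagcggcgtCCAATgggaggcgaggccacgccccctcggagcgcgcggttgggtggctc
Uhrf1: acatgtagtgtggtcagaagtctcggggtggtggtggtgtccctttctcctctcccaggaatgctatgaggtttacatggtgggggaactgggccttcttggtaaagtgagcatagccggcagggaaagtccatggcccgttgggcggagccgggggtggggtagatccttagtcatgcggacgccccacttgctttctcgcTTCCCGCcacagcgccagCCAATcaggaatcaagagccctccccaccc
Klf1: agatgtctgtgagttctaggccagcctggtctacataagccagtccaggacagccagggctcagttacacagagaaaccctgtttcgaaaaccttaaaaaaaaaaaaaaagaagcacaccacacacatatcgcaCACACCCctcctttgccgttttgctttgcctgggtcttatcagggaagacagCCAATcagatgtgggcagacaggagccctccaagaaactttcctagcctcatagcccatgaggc
Ermap: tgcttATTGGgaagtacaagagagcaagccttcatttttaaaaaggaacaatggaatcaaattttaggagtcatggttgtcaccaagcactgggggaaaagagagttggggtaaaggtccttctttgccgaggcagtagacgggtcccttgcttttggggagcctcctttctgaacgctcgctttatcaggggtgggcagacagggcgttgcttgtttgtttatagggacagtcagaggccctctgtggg
Gata1: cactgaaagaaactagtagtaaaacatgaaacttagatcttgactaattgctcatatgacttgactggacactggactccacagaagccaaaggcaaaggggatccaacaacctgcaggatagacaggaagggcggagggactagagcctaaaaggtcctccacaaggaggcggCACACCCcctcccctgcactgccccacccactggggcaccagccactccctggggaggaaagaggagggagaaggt
Ccnb2 holds 3 copies of CCAAT and 1 of TTTGAA, while Rrm2 holds 1 CCAAT. Uhrf1 holds TTCCCGC and CCAAT within the last 48 bases. Klf1 holds CACACCC and CCAAT, Gata1 holds CACACCC, and Ermap holds CCAAT on the opposite strand, near the far end of the window.

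Bone matrix genes went the other way. All 20 osteoblast and bone matrix genes were tested, and 14 were called lower and 0 higher (background 3.83% lower and 6.12% higher), with a median difference of -1.04. The replicate block called 15 lower and 1 higher. The median EMB effect was 0.50 in GFP+ and 2.00 in GFP- cells, and GFP- EMB- libraries lay below the 12 others for 11 of the 20, where 4.06% of all genes did so. GFP+ EMB- libraries lay above the 12 others for 5 (background 0.934%). One gene passed the filter through a single group.

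Ifitm5, which encodes the osteoblast protein BRIL, lay at 39.4, 26.7, 35.98 and 51.3 FPKM in GFP+ EMB+ libraries, at 23.6, 41.3, 34.9 and 34.7 in GFP+ EMB- libraries, at 51.1, 43.5, 56.0 and 56.4 in those sorted GFP- EMB+ and at 6.84, 10.04, 9.85 and 6.30 in those sorted GFP- EMB-. Only the GFP- EMB- libraries were apart from all the rest, below them, and the difference was -2.35 ± 0.27 (adjusted p = 1.1e-05). Bglap and Bglap2 encode osteocalcin in near-identical copies, so their split is uncertain. Bglap lay at 425, 271, 449 and 453 FPKM in GFP+ EMB+ libraries, at 326, 487, 565 and 563 in GFP+ EMB- libraries, at 561, 419.5, 811 and 611 in those sorted GFP- EMB+ and at 199, 136, 149.6 and 85.5 in those sorted GFP- EMB-. The first 3 groups overlapped and the fourth was lowest, and Bglap and Bglap2 differed by -2.37 ± 0.39 and -2.23 ± 0.39. For Serpinf1, the gene of pigment epithelium-derived factor, and the adhesion gene Cadm1, GFP- EMB- libraries again lay below the 12 others, with differences of -1.89 ± 0.16 and -1.90 ± 0.24.

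Runx2, the master transcription factor of the osteoblast, had another pattern. It lay at 31.7, 32.98, 43.3 and 37.99 FPKM in GFP+ EMB+ libraries, at 5.95, 11.2, 9.11 and 8.11 in GFP+ EMB- libraries, at 39.7, 34.3, 44.5 and 36.4 in those sorted GFP- EMB+ and at 4.16, 3.18, 3.85 and 2.57 in those sorted GFP- EMB-. Its EMB+ groups overlapped, and among EMB- libraries GFP- cells were lower than GFP+ cells without overlap, so the effect was 1.99 ± 0.15 in GFP+ and 3.17 ± 0.15 in GFP- cells. Spp1 (osteopontin) and Panx3 (a channel of prehypertrophic cells and osteoblasts) had the same order, with differences of -1.23 ± 0.17 and -1.01 ± 0.18. Both chains of type I collagen were highest in GFP+ EMB- cells. Col1a1 lay at 2869, 2069.6, 2221 and 2453 FPKM in GFP+ EMB+ libraries, at 5769.7, 5623, 6055 and 5791 in GFP+ EMB- libraries, at 2667, 2919, 3400.0 and 3139 in those sorted GFP- EMB+ and at 3794, 3565, 3385 and 3282 in those sorted GFP- EMB-. GFP+ EMB- libraries were higher than the 12 others, and the difference was -1.07 ± 0.13 (adjusted p = 4.4e-06), while Col1a2 differed by -0.98 ± 0.15. Dmp1, a gene of late osteoblasts and osteocytes, had opposite effects of -0.98 ± 0.20 in GFP+ and 0.81 ± 0.20 in GFP- cells.

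In hypertrophic and prehypertrophic cartilage, 9 of 20 tested genes were called lower and 0 higher (background 3.83% and 6.12%), with a median difference of -0.38. The median EMB effect was 1.63 in GFP+ and 2.02 in GFP- cells. GFP- EMB- libraries lay below the 12 others for 10 of the 20 and above them for 2 (background 4.06% and 3.70%). Some members, Runx2, Spp1 and Dmp1 among them, are also in the osteoblast list, so the counts of both lists share calls. The replicate block called 10 lower and 2 higher, where it called 7.69% and 8.56% of all genes. Ihh, the signal of prehypertrophic chondrocytes, lay at 133, 146, 126 and 124 FPKM in GFP+ EMB+ libraries, at 8.22, 10.9, 12.7 and 6.19 in GFP+ EMB- libraries, at 165.5, 152, 168.4 and 151 in those sorted GFP- EMB+ and at 5.72, 3.55, 6.67 and 3.27 in those sorted GFP- EMB-. It was higher in EMB+ than in EMB- cells of both sorts, by 3.71 ± 0.19 and 4.83 ± 0.19, and the difference was -1.12 ± 0.26 (adjusted p = 0.010). For Col10a1, the collagen of hypertrophic chondrocytes, the effects were 5.06 ± 0.41 and 5.41 ± 0.41, and the difference, -0.34 ± 0.59, was not called (adjusted p = 0.79).

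Cartilage matrix genes were called in both directions, in numbers that depended on the setting. Of 22 tested, 1 was called higher and 4 lower (background 6.12% and 3.83%), with a median of 0.06. The replicate block gave 4 higher and 4 lower, where it called 16.2% of all genes. Median-ratio scaling gave 1 higher and 2 lower, a fit with all 24 libraries 0 and 2, and leaving out any 1 library 1 to 3 lower. Sox9, the chondrocyte transcription factor, averaged 528 ± 64.3 and 331 ± 18.6 FPKM in EMB+ and EMB- cells of the GFP+ sort and 521 ± 36.9 and 337 ± 31.6 in the GFP- sort, with a difference of 0.04 ± 0.13 that was not called (adjusted p = 0.90). Col2a1 differed by 0.11 ± 0.08 (adjusted p = 0.47). Epyc, a small proteoglycan gene, was called higher at 0.79 ± 0.12. Matn3 and Matn1, matrilin genes, were called lower at -1.004 ± 0.19 and -0.92 ± 0.27, and Comp at -0.30 ± 0.09. The call for Comp was lost in 5 settings other than a left-out library and without any 1 of 12 libraries, and that for Matn1 in 3 settings and without any 1 of 8 libraries.

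**Figure D4:**
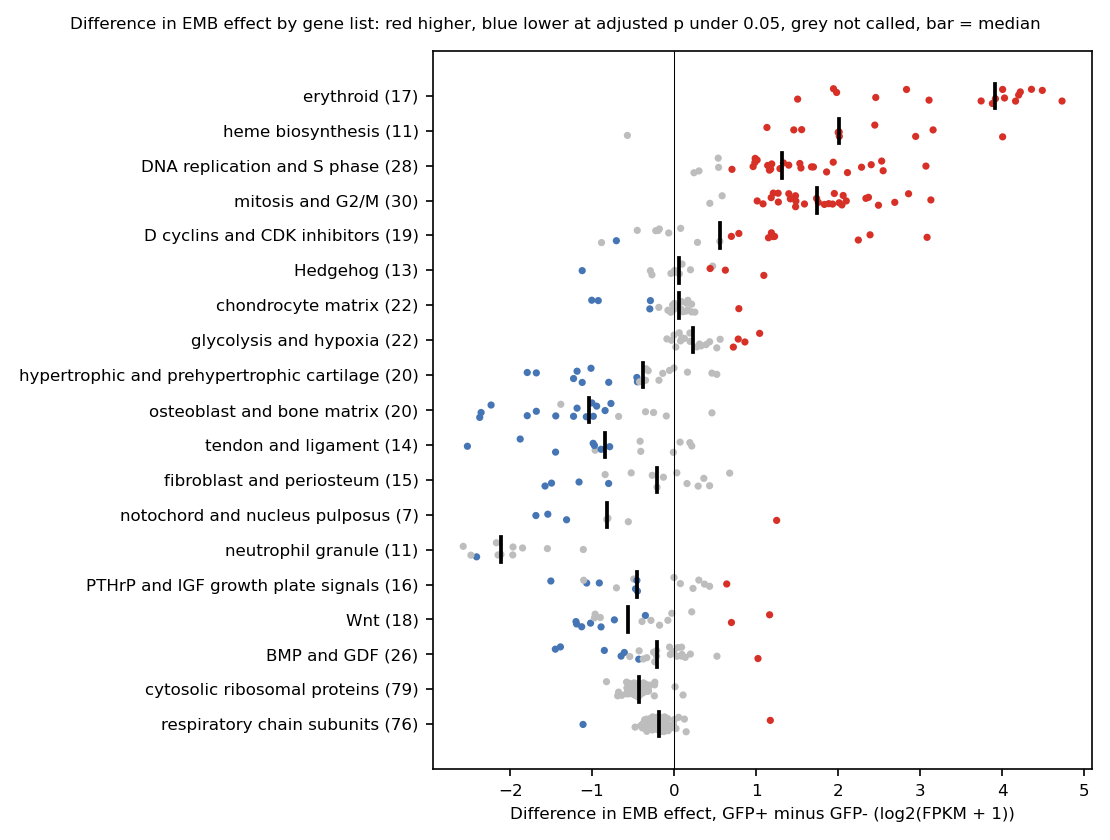
Difference in EMB effect (GFP+ minus GFP-, log2(FPKM + 1)) of every tested member of 19 gene lists; red and blue points are called higher and lower, grey points are not called, and bars mark medians. Erythroid and cell cycle lists lie to the right, and osteoblast, tendon and notochord lists to the left.

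Of 14 tendon and ligament genes, 11 were called higher in EMB- than in EMB+ cells of the GFP+ sort and 10 in the GFP- sort. In the difference, 7 were called lower and 0 higher (background 3.83% and 6.12%), and the median difference was -0.84, from median EMB effects of -1.496 in GFP+ and -1.06 in GFP- cells. A fit with all 24 libraries called 3 lower. GFP+ EMB- libraries were above the 12 others for 6 of the 14 (background 0.934%). Thbs4, a thrombospondin of tendon matrix, lay at 2.79, 2.30, 1.74 and 3.21 FPKM in GFP+ EMB+ libraries, at 38.8, 43.8, 50.1 and 43.2 in GFP+ EMB- libraries, at 8.60, 7.28, 12.6 and 13.96 in those sorted GFP- EMB+ and at 28.8, 20.4, 25.7 and 23.4 in those sorted GFP- EMB-. All 4 groups were apart, GFP+ EMB- highest and GFP+ EMB+ lowest, and the difference was -2.52 ± 0.24 (adjusted p = 2.0e-07). Tnmd, a membrane protein of tendon cells, lay at 8.73, 13.3, 13.4 and 11.1 FPKM in GFP+ EMB+ libraries, at 143, 137, 195 and 176.2 in GFP+ EMB- libraries, at 15.95, 14.1, 20.1 and 24.5 in those sorted GFP- EMB+ and at 66.9, 65.2, 76.2 and 61.0 in those sorted GFP- EMB-. It had the same order of groups without overlap, and a difference of -1.88 ± 0.22 (adjusted p = 6.1e-06).

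Col14a1, a fibril-associated collagen, differed by -1.45 ± 0.25 and Tnc, tenascin C, by -0.97 ± 0.17. Tnc was lowest in GFP- EMB- cells, at 20.1 ± 3.65 FPKM against 30.1 ± 4.31 in GFP+ EMB- cells. For Scx, the tendon transcription factor, EMB effects of -2.03 ± 0.16 and -1.62 ± 0.16 gave a difference of -0.41 ± 0.22 that was not called (adjusted p = 0.30). Among fibroblast and periosteum genes, 4 of 15 tested were called lower and 0 higher (background 3.83% and 6.12%). Postn (periostin), Lum (lumican), Pdgfra (a growth factor receptor) and Pi16 differed by -1.57 ± 0.30, -1.16 ± 0.13, -0.80 ± 0.19 and -1.49 ± 0.43. Pi16 reached FPKM 1 in 3 of the 12 libraries outside GFP+ EMB- and so passed the filter through that group alone; its call was lost in 2 settings and without any 1 of 8 libraries. Clec3b, the tetranectin gene, averaged 15.3 ± 7.47 FPKM in GFP+ EMB- cells, 3.33 ± 0.250 in GFP- EMB- cells and at most 1.38 in any EMB+ library. Its difference of -1.97 ± 0.40 lost its call with a pseudocount of 0.1.

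Genes with opposite effects and a lower difference were led by Hopx and Cck. Hopx, a homeodomain-only protein gene, lay at 3.81, 2.94, 4.73 and 4.14 FPKM in GFP+ EMB+ libraries, at 10.8, 13.2, 15.2 and 15.7 in GFP+ EMB- libraries, at 25.8, 28.2, 38.6 and 38.8 in those sorted GFP- EMB+ and at 15.9, 16.8, 14.3 and 15.6 in those sorted GFP- EMB-. EMB+ cells were lower than EMB- cells in the GFP+ sort and higher in the GFP- sort, each without overlap, and the difference was -2.59 ± 0.20 (adjusted p = 1.2e-08). Cck, which encodes cholecystokinin, lay at 0.528, 0.619, 0.698 and 0.0978 FPKM in GFP+ EMB+ libraries, at 5.43, 4.01, 7.16 and 9.05 in GFP+ EMB- libraries, at 6.57, 8.0002, 13.9 and 28.7 in those sorted GFP- EMB+ and at 5.02, 5.70, 7.0004 and 6.64 in those sorted GFP- EMB-. GFP+ EMB+ libraries were below all others, the GFP- groups overlapped, and the difference was -3.19 ± 0.48 (adjusted p = 0.00031). Lgals1 (galectin 1), Podxl2, Wisp1 (a matricellular protein of bone) and Adamts2 (which trims procollagen) had differences of -1.35 ± 0.30, -1.15 ± 0.24, -0.96 ± 0.17 and -1.03 ± 0.17.

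The notochord gives rise to the nucleus pulposus of the disc, and its markers T, Krt8 and Krt18 were low in every GFP+ library. Of 10 listed genes, 7 were tested, 3 were called lower and 1 higher (background 3.83% and 6.12%), with a median difference of -0.82, and GFP- EMB+ libraries lay above the 12 others for 5 of the 7 (background 2.70%). T, which encodes brachyury, lay at 0, 0, 0.176 and 0 FPKM in GFP+ EMB+ libraries, at 0.818, 0.339, 0.174 and 0.634 in GFP+ EMB- libraries, at 9.64, 12.2, 13.4 and 13.3 in those sorted GFP- EMB+ and at 5.23, 5.13, 3.47 and 5.31 in those sorted GFP- EMB-. The difference was -1.68 ± 0.22 (adjusted p = 1.4e-05), and the GFP+ groups overlapped at the low end. Krt8, a keratin of nucleus pulposus cells, averaged 44.8 ± 11.46 and 13.2 ± 4.19 FPKM in EMB+ and EMB- cells of the GFP- sort and at most 0.827 in any GFP+ library. Krt8 and Krt18 differed by -1.54 ± 0.33 and -1.31 ± 0.31, and with a pseudocount of 0.1 both calls were lost and T alone was called lower. Krt18 reached FPKM 1 in 3 of the 12 libraries outside GFP- EMB+. It thus passed the filter through the group where it was high, which favoured a difference, so its call is no independent support. Cd24a, which red cell precursors also carry, was the member called higher (1.25 ± 0.12). Shh averaged 0.286 FPKM in GFP- EMB+ cells and did not pass the filter.

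Granulocyte genes varied widely in GFP- EMB+ libraries, which lay above the 12 others for 5 of the 11 neutrophil granule genes tested (background 2.70%). Summed FPKM of 13 neutrophil granule genes was 562 to 3963 and 170.5 to 693 in EMB+ and EMB- libraries of the GFP- sort, and 19.3 to 244 and 43.7 to 106 in those of the GFP+ sort. Of 11 tested, 1 was called lower and 0 higher (background 3.83% and 6.12%), with a median difference of -2.11, and the block called 2. Ctsg (cathepsin G) lay at 0.519, 0.615, 0.119 and 0 FPKM in GFP+ EMB+ libraries, at 0, 0, 0 and 0.0457 in GFP+ EMB- libraries, at 4.44, 5.21, 30.8 and 10.5 in those sorted GFP- EMB+ and at 0.0591, 0.244, 1.66 and 0.691 in those sorted GFP- EMB-. GFP- EMB+ libraries were above all others, and its difference of -2.41 ± 0.63 (adjusted p = 0.026) lost its call in 2 settings other than a left-out library and without any 1 of 6 libraries. Ctsg reached FPKM 1 in 1 of the 12 other libraries. It thus passed the filter through GFP- EMB+ alone, which favoured a difference, so its call is no independent support. Mpo (myeloperoxidase) averaged 131 ± 113 FPKM in GFP- EMB+ cells, while each of the 4 GFP+ EMB- libraries lists it at 0, with a difference of -1.97 ± 1.03 that was not called (adjusted p = 0.29).

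Elane, Prtn3, S100a8 and S100a9, further granule genes, had differences of -2.11 ± 0.95, -2.15 ± 0.75, -2.48 ± 1.25 and -2.57 ± 1.25, with adjusted p of 0.21, 0.097, 0.27 and 0.25. Prtn3 was called with the block (adjusted p = 0.025). Outside the list, Fcnb (a ficolin of granulocytes) and Ms4a3 (a gene of granulocyte precursors) were among the 12 largest lower differences, at -2.497 ± 0.33 and -2.15 ± 0.40. They too passed the filter through GFP- EMB+ alone, at FPKM 1 or more in 2 and 1 of the 12 other libraries. The part of granulocytes in other genes high in GFP- EMB+ libraries was not tested.

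Marker lists of further cell types are given next. The 13 macrophage and osteoclast genes summed to 66.2 to 283 FPKM in GFP- EMB+ and to 36.6 to 57.6, 34.6 to 48.3 and 39.5 to 62.3 in GFP+ EMB+, GFP+ EMB- and GFP- EMB- libraries. Of 5 tested, Acp5, the gene of tartrate-resistant acid phosphatase, was called higher (2.11 ± 0.25) and Ctsk, cathepsin K, lower (-1.34 ± 0.14). The B lineage and MHC class II genes summed to at most 52.0 FPKM in any library, with 1 of 8 tested called lower, Ebf1 (-0.66 ± 0.18), which stromal cells also express. Among adipocyte and marrow stroma genes, 2 of 7 tested were called lower, Cxcl12, a chemokine of marrow niches, at -1.67 ± 0.31 and Adipoq, adiponectin, at -1.06 ± 0.31. The call for Adipoq was lost in 3 settings and without any 1 of 9 libraries. Of endothelium and skeletal muscle genes, 3 and 3 were tested and limma called 0. The endothelium and pericyte sum was 132 to 150 FPKM in GFP+ EMB+ and 137 to 141 in GFP- EMB+ libraries. In GFP+ EMB- and GFP- EMB- libraries it was 54.6 to 61.2 and 50.3 to 54.2. The skeletal muscle sum was 86.4 to 109 and 63.2 to 79.9 FPKM in EMB+ libraries of the GFP+ and GFP- sorts. In their EMB- libraries it was 33.7 to 44.7 and 34.8 to 45.9. Over all genes tested, 6.12% were called higher and 3.83% lower, so 0 or 1 call in lists this short is near that share.

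**Figure D5:**
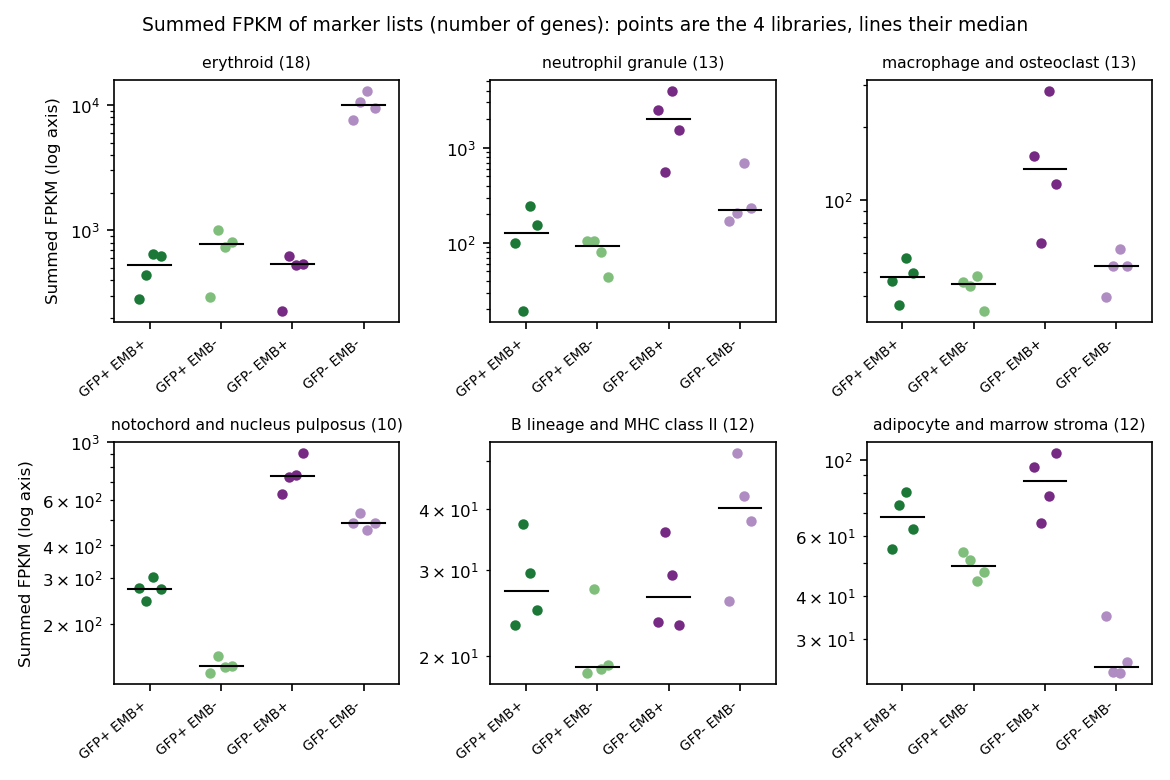
Summed FPKM (log axes) of 6 marker lists in the 4 groups; points are the 4 libraries and lines their median. The erythroid sum is highest in the 4 GFP- EMB- libraries, the macrophage and notochord sums in the 4 GFP- EMB+ libraries, and the neutrophil sum of GFP- EMB+ libraries overlaps that of GFP- EMB- libraries.

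Of 13 Hedgehog genes tested, 3 were called higher and 1 lower (background 6.12% and 3.83%). Leaving out 1 library gave 1 to 3 higher, with 1 without GFP+ EMB+ replicate 2 or GFP- EMB+ replicate 4, and a fit with all 24 libraries gave 1. The ligand gene Ihh fell on the lower side, as given above. Hhip, a decoy receptor that Hedgehog signalling induces, lay at 47.6, 48.2, 46.8 and 41.9 FPKM in GFP+ EMB+ libraries, at 24.9, 27.4, 26.3 and 25.6 in GFP+ EMB- libraries, at 27.8, 31.3, 26.9 and 25.7 in those sorted GFP- EMB+ and at 30.3, 38.5, 33.8 and 35.5 in those sorted GFP- EMB-. GFP+ EMB+ libraries were above the 12 others, and the difference was 1.10 ± 0.12 (adjusted p = 1.2e-06). Ptch1, the receptor and a target of the pathway, averaged 49.2 ± 3.31 and 9.82 ± 1.22 FPKM in EMB+ and EMB- cells of the GFP+ sort and 39.0 ± 1.35 and 7.67 ± 0.546 in the GFP- sort. Its difference was 0.01 ± 0.13 and was not called (adjusted p = 0.98), nor was that of the target Gli1, 0.10 ± 0.19. Gli2 and Smo, the effector and the transducer, were called higher at 0.63 ± 0.17 and 0.44 ± 0.14. Smo lost its call in 3 settings other than a left-out library and without any 1 of 10 libraries, and Gli2 in 1 setting and without any 1 of 2 libraries.

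Among other growth plate signals, 6 of 16 tested genes of the PTHrP and IGF list were called lower and 1 higher (background 3.83% and 6.12%). With all 24 libraries these counts were 2 and 0, and with the block 7 and 2. Igf2, Gnas (the stimulatory G protein alpha subunit) and Igfbp4 (an IGF-binding protein) differed by -0.91 ± 0.14, -0.47 ± 0.10 and -1.07 ± 0.23, and Pde4b, which breaks down cyclic AMP, by 0.64 ± 0.14. In the BMP and GDF list 6 of 26 were called lower and 1 higher, against the same background, and 3 were called lower with all 24 libraries. Bmp4 averaged 4.63 ± 0.982 FPKM in GFP+ EMB- cells and 1.44, 1.56 and 1.16 in GFP+ EMB+, GFP- EMB+ and GFP- EMB- cells, with a difference of -1.45 ± 0.24. Fst, an activin and BMP antagonist, and Gdf10 differed by -1.39 ± 0.22 and -0.85 ± 0.17, and Bmp3 by 1.02 ± 0.17.

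In the Wnt list 7 of 18 tested were called lower and 2 higher (background 3.83% and 6.12%), with a median of -0.56. Tcf7, a transcription factor of the pathway, the ligand Wnt5b and Dkk3, of the Dickkopf family, differed by -1.20 ± 0.20, -0.73 ± 0.14 and -1.19 ± 0.18, and the secreted antagonist Sfrp5 by 1.17 ± 0.17. Among guidance genes Nrp2, a neuropilin, was called lower (-1.34 ± 0.20) and the ephrin gene Efnb2 higher (0.96 ± 0.18). Of 11 tested Zic, Pax and sclerotome genes, 2 were called higher and 1 lower (background 6.12% and 3.83%). With the block these counts were 4 and 1 (background 8.56% and 7.69%). Under the stricter FPKM filter, which tests fewer genes, they were 1 and 0. Zic4 averaged 5.58 ± 0.998 and 1.22 ± 0.331 FPKM in EMB+ and EMB- cells of the GFP+ sort and at most 0.296 in any GFP- library, with a difference of 1.66 ± 0.21. Zic1 differed by 0.65 ± 0.22, which was not called (adjusted p = 0.070) and was called with the block (adjusted p = 0.048). Zic4 reached FPKM 1 in 3 and Zic1 in 1 of the 12 libraries outside GFP+ EMB+, so both passed the filter through that group alone. That favoured a difference, so the call for Zic4, and that for Zic1 with the block, are no independent support. The Zic1 and Zic4 loci overlap, and the library kits do not mark strand, so reads in the overlap cannot be told apart. Pax1, a sclerotome factor, and Meox1 differed by 0.50 ± 0.12 and -0.94 ± 0.23.

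Matrix proteases and inhibitors were called lower for 6 of 16 tested and higher for 1 (background 3.83% and 6.12%), and 2 of the 16 passed the filter through a single group. The higher call was lost with a pseudocount of 5, with no filter, with no trend and with all 24 libraries. It was also lost without any 1 of many libraries. In the GFP+ sort these were EMB- replicates 2, 3 and 4 and EMB+ replicates 1, 2 and 3. In the GFP- sort they included EMB- replicates 1, 2 and 4 and EMB+ replicate 1. Timp1, a protease inhibitor, lay at 73.4, 74.5, 96.9 and 93.7 FPKM in GFP+ EMB+ libraries, at 29.8, 36.5, 44.0 and 38.8 in GFP+ EMB- libraries, at 134, 98.6, 148 and 141 in those sorted GFP- EMB+ and at 18.3, 17.2, 20.3 and 20.8 in those sorted GFP- EMB-. The 4 groups did not overlap, with GFP- EMB+ highest and GFP- EMB- lowest, and the difference was -1.53 ± 0.18 (adjusted p = 4.5e-06). Mmp2 and Mmp23 differed by -0.84 ± 0.10 and -0.96 ± 0.13, the latter with opposite effects. Of 22 glycolysis and hypoxia genes, 4 were called higher and 0 lower (background 6.12% and 3.83%), 9 higher with the block and 1 with all 24 libraries. GFP- EMB- libraries lay above the 12 others for 9 of the 22 and below them for 0 (background 3.70% and 4.06%). Median EMB effects were -0.21 in GFP+ and -0.34 in GFP- cells, where those over all genes were 0.33 and 0.31. The 4 called higher were Pfkp (1.04 ± 0.16) and Hk1 (0.86 ± 0.20), enzymes of glycolysis, Car9 (0.78 ± 0.21), a carbonic anhydrase induced by hypoxia, and Slc16a1 (0.72 ± 0.20), a monocarboxylate transporter. Car9 averaged 17.9 ± 2.18 and 36.3 ± 4.28 FPKM in the EMB- groups of the GFP+ and GFP- sorts and at most 1.503 in any EMB+ library; its call was lost with a pseudocount of 0.1 and with all 24 libraries.

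Of 23 genes of ER stress and collagen folding, 2 were called higher and 2 lower (background 6.12% and 3.83%). The block gave 2 and 4, and all 24 libraries 1 and 0. Those called include Ddit3 (1.27 ± 0.29), Plod2 (0.51 ± 0.12) and Creb3l1 (-0.70 ± 0.13). Among 21 immediate early and dissociation stress genes, which respond to tissue handling, 4 were called higher and 0 lower (background 6.12% and 3.83%), with Atf3 at 0.57 ± 0.15 and Socs3 at 0.49 ± 0.13; a fit with all 24 libraries called 0. Limma called 0 of 79 cytosolic ribosomal protein genes (background 9.95%), which had a median difference of -0.43. With the replicate block, 45 of them were called lower and 0 higher, where 7.69% of all genes were called lower, and Rpl35, for example, went from an adjusted p of 0.055 to 0.00076 at a difference of -0.41 ± 0.13. Respiratory chain genes gave 1 higher and 1 lower of 76 (background 6.12% and 3.83%), and 1 and 18 with the block (background 8.56% and 7.69%). Without GFP- EMB+ replicate 2, 4 ribosomal and 5 respiratory chain genes were called lower. Among 24 Hox genes tested, Hoxa7 alone was called, lower at -0.71 ± 0.19, which is near the background of 3.83% lower.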

How the data were processed

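RNA from sorted vertebral cells was purified with a Qiagen RNeasy kit and made into libraries with SMART-Seq v4 and Nextera XT, per the labels' protocols. Tools named in the submitters' processing notes are Cufflinks 2.1.1, STAR 2.5.2 and bcl2fastq 2.19, with the mouse build GRCm38. Values are FPKM of protein-coding genes as deposited by the authors, 1 column per library, so read depth is unknown, an abundant gene lowers all others, and precision rests on the 4 replicates per group. Entries repeating an identifier (46) or symbol (56) and 3 genes with failed estimates were left out of 22053, and 1 was added to start positions, taken as counting from 0.

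The limma package (3.58.1, R 4.3.3) was fitted to log2(FPKM + 1) of the 4 groups in 16 libraries, with empirical Bayes trend and robust estimation (12 residual degrees of freedom), and checked on simulated data. Adding 1 makes the fold change of a gene with low FPKM look smaller than it was. Levels are given as mean ± SD and differences as estimate ± SE; p-values are two-sided and were adjusted over all 11237 genes (Benjamini-Hochberg, 0.05). Same-numbered libraries deviated together from their group means in all 24 pairs (correlation 0.101 to 0.351), so the numbers in the titles were taken to pair libraries; nothing says what they share. The main fit holds no block, so its SE and p-values take in any variation that same-numbered libraries share.

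Genes named are the 12 largest differences per direction (adjusted p under 0.05, mean FPKM of 5 or more in a group, no predicted genes), the 8 largest opposite effects per direction, up to 4 members per list with the smallest adjusted p, 1 or 2 members for their role, and the sort markers Emb and Zic1; results for some genes these rules pick are not reported here. The comparison, lists and rules were chosen with earlier results of these data known. Alternatives were pseudocounts of 0.1 and 5, no filter, a filter at FPKM 5, quantile and median-ratio scaling (the latter over 5122 genes), rescaling without hemoglobin genes, Col2a1 and Sparc, all 24 libraries, library weights, no trend, the block, and each library left out.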

Additional observations from a re-analysis of the deposited data

Results flagged for a closer look

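The EMB effect differed between GFP+ and GFP- cells, by the limma test of the difference itself, for 1118 genes. The report names 126 genes, and 113 of them are among these, with the log2 differences (GFP+ minus GFP-) given next. Among genes with a higher EMB effect in GFP+ cells, the values in order of size were as follows. Of the genes named, the difference was 4.73 for Slc4a1, 4.64 for Ctse, 4.49 for Car2, 4.36 for Klf1, 4.22 for Hba-a1, 4.20 for Hbb-bt, 4.13 for Tspan33, 4.03 for Hbb-bs, 4.01 for Alas2, 3.92 for Hba-a2, 3.88 for Rhag and 3.75 for Ermap. It was 3.13 for Ube2c, 3.09 for E2f2, 3.08 for Hist1h2ae, 3.07 for Rrm2, 2.95 for Slc25a37, 2.86 for Birc5, 2.84 for Gata1, 2.69 for Ccnb2, 2.69 for Hist1h1b, 2.53 for Tk1, 2.502 for Dck and 2.49 for Ccna2. Next came differences of 2.46 for Sptb, 2.45 for Alad, 2.41 for Uhrf1, 2.39 for Mybl2, 2.37 for Top2a, 2.30 for Hist1h2ab, 2.29 for Ccne1, 2.25 for E2f8, 2.11 for Acp5, 2.003 for Cpox, 1.93 for Mki67 and 1.86 for Fen1. Further down, it was 1.66 for Zic4, 1.27 for Ddit3, 1.25 for Cd24a, 1.23 for Cdkn2d, 1.17 for Sfrp5, 1.10 for Hhip, 1.04 for Pfkp, 1.02 for Bmp3, 0.96 for Efnb2, 0.86 for Hk1, 0.79 for Epyc and 0.78 for Car9. Then it was 0.72 for Slc16a1, 0.64 for Pde4b, 0.63 for Gli2, 0.57 for Atf3, 0.55 for Emb, 0.51 for Plod2, 0.50 for Pax1, 0.49 for Socs3 and 0.44 for Smo. Among genes with a lower EMB effect in GFP+ cells, the order by size was as follows. The difference was -3.19 for Cck, -2.59 for Hopx, -2.52 for Thbs4, -2.497 for Fcnb, -2.41 for Ctsg, -2.37 for Bglap, -2.35 for Ifitm5, -2.23 for Bglap2, -2.15 for Ms4a3, -1.97 for Clec3b, -1.90 for Cadm1 and -1.89 for Serpinf1. After these it was -1.88 for Tnmd, -1.79 for Dmp1, -1.68 for T, -1.67 for Cxcl12, -1.57 for Postn, -1.54 for Krt8, -1.53 for Timp1, -1.49 for Pi16, -1.45 for Bmp4, -1.45 for Col14a1, -1.39 for Fst and -1.35 for Lgals1. Smaller still, it was -1.34 for Ctsk, -1.34 for Nrp2, -1.31 for Krt18, -1.23 for Spp1, -1.20 for Tcf7, -1.19 for Dkk3, -1.18 for Runx2, -1.16 for Lum, -1.15 for Podxl2, -1.12 for Ihh, -1.07 for Col1a1 and -1.07 for Igfbp4. Below that, it was -1.06 for Adipoq, -1.03 for Adamts2, -1.01 for Panx3, -1.004 for Matn3, -0.98 for Col1a2, -0.97 for Tnc, -0.96 for Wisp1, -0.96 for Mmp23, -0.94 for Meox1, -0.92 for Matn1, -0.91 for Igf2 and -0.85 for Gdf10. It was then -0.84 for Mmp2, -0.80 for Pdgfra, -0.73 for Wnt5b, -0.71 for Hoxa7, -0.70 for Creb3l1, -0.66 for Ebf1, -0.47 for Gnas and -0.30 for Comp.

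One library lay apart from the rest of its group, by Dixon's test at 95%, in 25 of 468 groups of 4 libraries over the genes named, and chance flags about 1 in 20 groups. The highest library of the GFP- EMB+ group stood at 41.9 FPKM for Birc5 (replicate 3), 261 FPKM for Epyc (replicate 1), 3.28 FPKM for Gli2 (replicate 2), 38.7 FPKM for Rrm2 (replicate 3) and 576 FPKM for Sox9 (replicate 2). The highest library of the GFP+ EMB- group stood at 11.1 FPKM for Bmp3 (replicate 2), 7.68 FPKM for Nrp2 (replicate 2) and 74.5 FPKM for Pfkp (replicate 1). The highest library of the GFP- EMB- group stood at 18.2 FPKM for Bmp3 (replicate 2), 7.65 FPKM for Efnb2 (replicate 2), 5.85 FPKM for Pdgfra (replicate 1) and 256 FPKM for S100a8 (replicate 3). The highest library of the GFP+ EMB+ group stood at 17.5 FPKM for Cpox (replicate 1), 13.8 FPKM for Fen1 (replicate 1), 7.23 FPKM for Scx (replicate 4) and 67.01 FPKM for Smo (replicate 2). The lowest library of the GFP+ EMB+ group stood at 1.32 FPKM for Alas2 (replicate 1), 271 FPKM for Bglap (replicate 2) and 69.8 FPKM for Sfrp5 (replicate 1). The lowest library of the GFP- EMB+ group stood at 1.06 FPKM for Alas2 (replicate 1), 52.3 FPKM for Hbb-bs (replicate 1) and 13.96 FPKM for Hbb-bt (replicate 1). The lowest library of the GFP+ EMB- group stood at 129 FPKM for Bglap2 (replicate 1) and 18.4 FPKM for S100a9 (replicate 4). The lowest library of the GFP- EMB- group stood at 3.47 FPKM for T (replicate 3). Replicate 1 of the GFP- EMB+ group was the low library for Alas2, Hbb-bs and Hbb-bt alike. The causes of these departures were not tested.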

How the results depend on the processing

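Of the 126 genes named, 113 were called in the difference. Of these, 85 kept their call under every alternative that tested them, and 103 without each library in turn. None of the 113 changed sign where tested. A gene that did not pass the filter at FPKM 5, such as Mki67, was not tested there and was not counted as losing its call. The number of genes called was 935 to 1213 with 1 library left out (589 to 709 higher, 345 to 504 lower), 573 with all 24 libraries (377 higher, 196 lower) and 1826 with the replicate block (864 lower); the block changed the calls of Prtn3, Zic1 and Rpl35 among the genes named. Opposite effects numbered at least 125 without 1 library and 72 with all libraries; same-direction effects 251 to 375, 106 with all libraries and 770 with the block. Effects called in GFP+ cells alone numbered 216 to 287 without 1 library, 153 with all libraries and 177 under the stricter filter, which tests fewer genes; those called in GFP- cells alone 305 to 392 and, under that filter, 213. The stricter filter left 693 lower genes in the GFP+ effect and 914 in the GFP- effect. Scaling moved the EMB effects: in GFP+ cells to 4121 (2219 higher, 1902 lower) by quantile normalization, 4147 (2051 and 2096) by median ratios and 4429 (2796 and 1633) without hemoglobin genes, Col2a1 and Sparc; in GFP- cells to 2769 and 2328, 2245 and 2728, and 2472 and 2432. Without 1 library the GFP+ effect was called for 6242 to 6853 genes (5263 to 5811 higher, 975 to 1050 lower) and the GFP- effect for 6397 to 6936 (5087 to 5557 higher, 1271 to 1381 lower). List counts without 1 library were 17 to 17 for erythroid, 10 to 10 for heme, 23 to 25 for replication, 28 to 29 for mitosis, 14 to 15 for osteoblast, 8 to 9 for hypertrophic, 6 to 8 for tendon and 6 to 8 for Wnt genes; all libraries gave 3 for tendon. Counts of small lists moved more: without 1 library, 3 to 5 notochord, 1 to 4 adipocyte, 1 to 3 guidance and 1 to 3 cartilage matrix genes were called lower (the most for notochord without GFP- EMB+ replicate 1, for adipocyte and guidance without GFP- EMB- replicate 1), and 1 to 3 Hedgehog and 2 to 4 immediate early genes higher; 0 to 2 neutrophil and 1 to 3 ER stress genes were called lower. Signs of uncalled genes turned for Ptch1 (-0.0157 with a pseudocount of 0.1, -0.0477 by quantiles, -0.0164 with library weights, -0.0348 to 0.0836 without 1 library), Mpo (0.42 with a pseudocount of 0.1), Sox9 (-0.0362 to 0.102 without 1 library) and Gli1 (-0.0364 to 0.207). The causes were not tested. Read depth is unknown, so which low values counting error limits cannot be said.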

Other observations

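Calls in several lists not described above are given here. Over all genes tested, 6.12% were called higher and 3.83% lower, and 8.56% and 7.69% with the block. A count of 0 in lists this short is near the main shares. TGF-beta genes gave 0 called of 14 tested, with a median difference of -0.09, and Notch genes 0 of 7; the block called 1 TGF-beta gene and 0 Notch genes. Of 13 FGF genes, 1 was called higher and 1 lower, and with the block 1 and 4; leaving out 1 library gave 0 to 1 higher and 0 to 3 lower, with 3 without GFP+ EMB- replicate 1. Neural and Schwann cell genes gave 0 of 6 called and 2 higher with the block, and their summed FPKM was 85.7 to 208 in GFP- EMB- libraries against 67.99 to 73.6 in GFP+ EMB+, 67.8 to 86.1 in GFP+ EMB- and 76.9 to 95.3 in GFP- EMB+ libraries.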
